A study of Homo sapiens with 4 samples.

Results

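The genes described here are 10 genes of the contractile apparatus that marks myofibroblasts, namely ACTA2, ACTG2, TAGLN, MYL9, CNN1, TPM1, TPM2, CALD1, MYLK and SRF. They were found by matching these symbols to the 63677 gene identifiers of the count files, with primary chromosomes only, and all 10 were matched. The cells were IMR90, a line of normal human lung fibroblasts, in the form of the isolates I90-10 and I90-79 at passage 5. Each isolate was transfected with RNAiMAX either with a non-targeting control siRNA (NTC, "control") or with siRNA against HMGB1, the gene of an abundant chromatin protein ("HMGB1 knockdown"), and was collected after 72 h. This gave 2 control and 2 knockdown libraries of poly(A) RNA, in which replicate 1 was always I90-10 and replicate 2 always I90-79. Each library is thus 1 transfected culture of 1 isolate, and the spread within a group is the spread between the isolates together with that between cultures.

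Myofibroblasts are fibroblasts that have built a smooth muscle-like contractile apparatus, as they do in wound healing and in lung fibrosis. In this apparatus, filaments of smooth muscle actin are bundled and stiffened by tropomyosin, caldesmon, calponin and transgelin. They are pulled by non-muscle or smooth muscle myosin, which becomes active once myosin light chain kinase has phosphorylated its regulatory light chain. The transcription factor SRF, with cofactors of the myocardin family that sense the pool of unpolymerised actin, binds a short A/T-rich element called the CArG box and drives most of these genes. SRF is also a target of its own control, and the smooth muscle form of α-actin, encoded by ACTA2, is the standard marker of the myofibroblast.

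The libraries held 29869338 and 35317010 (control) and 29861687 and 31086475 (knockdown) reads counted on genes, and the 10 genes had between 638 (CNN1, knockdown replicate 2) and 41016 (TPM2, control replicate 1) reads in a library. HMGB1 itself had 181 and 237 CPM (read counts over library size, scaled by edgeR's TMM factors) in control and 15.96 and 18.9 CPM in knockdown libraries, a log2-fold change of −3.59 ± 0.19 (here and below, ± SE of the fit; adjusted p = 0.0075). A gene was called up- or downregulated at an adjusted p below 0.01 in edgeR's quasi-likelihood test and a log2-fold change above 0.6 in size, and 15398 genes with enough reads were tested. All 10 markers of lung fibroblasts were expressed, while 0 of 5 epithelial, 0 of 3 leukocyte and 0 of 4 striated muscle markers reached 1 CPM in any library. The summed level of 6 markers of differentiated smooth muscle was 145 and 123 CPM in control and 105 and 97.4 CPM in knockdown libraries. All 6 reached 1 CPM in at least 1 library. SMTN had 70.3 to 80.3 CPM, and LMOD1 went from 40.9 and 8.87 CPM in control to 2.01 and 0.45 CPM in knockdown libraries. MYOCD had 15.4 and 17.1 CPM in control and 14.8 and 8.04 CPM in knockdown libraries. MYH11 (0.61 to 2.21 CPM) and DES (0.27 to 1.60 CPM) had low levels. The part of this marker list in the results was not tested. Of 3 endothelial markers found in the files, VWF alone reached 1 CPM, with 1.36 and 0.92 CPM in control and 4.16 and 2.59 CPM in knockdown libraries.

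The contractile genes had fewer reads upon HMGB1 knockdown. Together they took 0.561 and 0.318% of all counted reads in the control and 0.2502 and 0.197% in the knockdown libraries. All 10 were lower in the knockdown than in the control of the same isolate in both isolates, which held for 39.4% of all genes tested. For 6 of them, ACTA2, ACTG2, TPM1, CALD1, MYLK and SRF, both knockdown libraries lay below both control libraries (30.2% of all genes), and for 0 of them both lay above (29.8%). None was higher in the knockdown in both isolates (38.9% of all genes). Log2-fold changes of the 10 ranged from −2.07 to −0.34 with a median of −1.06, where the median of all genes tested was −0.01. In bulk RNA, fewer contractile cells and less contractile RNA per cell cannot be told apart.

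Without a term for the isolate, 0 of the 10 genes passed the thresholds of edgeR's test, at which 0.136% of all genes were called downregulated and 0.0649% upregulated. At an unadjusted p below 0.05, 6 of the 10 were lower (14.7% of all genes), and at an adjusted p below 0.05 with the same fold threshold SRF and MYLK were called (4.34% of all genes). DESeq2 called 3 of the 10 downregulated (5.31% of all genes) and 0 upregulated (4.73%), and RUVs followed by DESeq2 called 5, ACTA2, ACTG2, TPM1, MYLK and SRF (6.1% of all genes), and 0 (5.7%). With the isolate as a block, that is, with knockdown compared to control within each isolate, 7 of the 10 were downregulated, ACTA2, ACTG2, MYL9, CNN1, TPM1, MYLK and SRF, and 0 were upregulated. This fit called 7.84% of all genes downregulated and 6.68% upregulated. TAGLN, TPM2 and CALD1 were not called in either edgeR fit. The calls of MYL9 and CNN1 with the block were not made with RUVs, where their log2-fold changes were −0.47 (adjusted p = 0.014) and −0.54 (adjusted p = 0.0092), and that of TAGLN was −0.37 (adjusted p = 0.028).

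**Figure D1:**
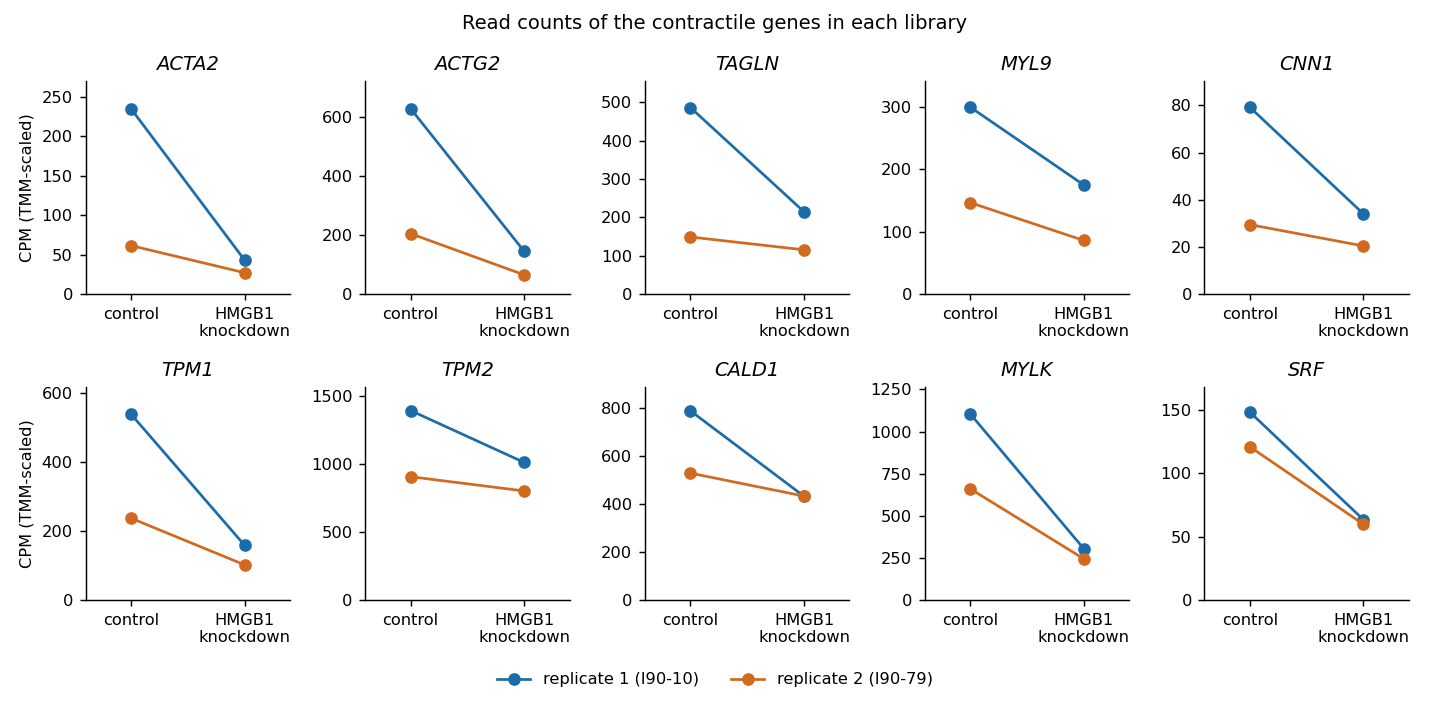
Read counts (CPM, y axis from 0, scaled separately for each gene) of the 10 contractile genes in the control and HMGB1 knockdown libraries, with 1 line for each isolate. All lines slope downwards, replicate 1 (I90-10) lies above replicate 2 (I90-79) in the control of each gene, and the isolates lie closer together in the knockdown.

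SRF, the transcription factor of the set, was the gene whose control replicates lay closest together. SRF (ENSG00000112658; hg19 chromosome 6, 43139037 to 43149243, plus strand) had 148 and 121 CPM in control and 63.4 and 59.8 CPM in knockdown libraries. Both knockdown values were about 60 CPM and well below both controls. The log2-fold change was −1.13 ± 0.14 (adjusted p = 0.018 in edgeR's test) and −1.12 ± 0.10 with the isolate as a block (adjusted p = 1.8e-04), so that SRF was called in the second fit only. It was −1.22 in I90-10 and −1.02 in I90-79. DESeq2 called it as well, with an adjusted p of 8.8e-08.

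Because SRF acts through CArG boxes, the promoters of the set were searched for them, on both strands, in the 250 bases before and 50 bases after each RefSeq start site (GRCh38.p14). Promoters were found for 8 of the 10 genes, with 14 start sites in all, and not for TAGLN and MYL9. A CArG box was counted where a pair of C and a pair of G flank 6 bases that are all A or T, and a CArG-like box where 1 of these 6 bases is G or C. ACTG2, MYLK and SRF held CArG boxes, and ACTA2 and CALD1 held CArG-like boxes. SRF, ACTA2 and CALD1 have more than 1 promoter and held boxes in only 1 of them. Among 35116 RefSeq promoters of this length, 1.29% held a CArG box and 6.94% a CArG-like box. Those are shares of promoters and not a like comparison, since the genes of the set, some with several start sites, were counted once each. The 150 bases just before the start site are given for 4 genes with matching boxes, SRF, ACTG2, MYLK and ACTA2. For ACTA2 these are CArG-like boxes only. CALD1, whose CArG-like box begins 26 bases before its start site, is not among these 4. The 150 bases run 5′ to 3′ on the strand of the gene, up to the base before the start site, with the boxes in capitals.
SRF (chr6:43171119-43171268, plus strand): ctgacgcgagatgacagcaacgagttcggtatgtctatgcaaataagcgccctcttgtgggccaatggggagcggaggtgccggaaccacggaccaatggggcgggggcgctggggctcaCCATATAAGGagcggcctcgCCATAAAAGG
ACTG2 (chr2:73892858-73893007, plus strand): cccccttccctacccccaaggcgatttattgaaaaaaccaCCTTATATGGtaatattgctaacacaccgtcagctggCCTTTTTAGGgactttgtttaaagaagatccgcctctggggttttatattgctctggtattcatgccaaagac
MYLK (chr3:123620549-123620698, minus strand): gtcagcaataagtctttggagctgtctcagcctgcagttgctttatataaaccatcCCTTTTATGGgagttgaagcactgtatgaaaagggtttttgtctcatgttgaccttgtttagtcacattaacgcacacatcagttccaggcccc
ACTA2 (chr10:88952774-88952923, minus strand): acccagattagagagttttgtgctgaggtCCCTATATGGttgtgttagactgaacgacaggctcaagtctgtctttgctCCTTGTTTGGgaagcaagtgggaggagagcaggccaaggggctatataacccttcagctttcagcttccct

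In SRF itself the boxes begin 30 and 10 bases before the start site, in ACTG2 110 and 73 bases, in MYLK 94 bases, and in ACTA2 121 and 71 bases before it. Of the genes named in this paragraph, ACTG2, MYLK, SRF and ACTA2 were called downregulated with the isolate as a block and CALD1 was not. TPM1 and CNN1 were called with the block too and had no box within this window. A match of letters is a description of the sequence and was not measured as a binding site.

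The smooth muscle actins came first in size of the log2-fold change in both edgeR fits of all 4 libraries, but without control replicate 1 MYLK and SRF came before them. ACTA2, the α-actin (ENSG00000107796; hg19 chromosome 10, 90694831 to 90751147, minus strand), had 235 and 61.6 CPM in control and 43.4 and 27.2 CPM in knockdown libraries. The control libraries differed 3.82-fold from each other, and both lay above the knockdown. The log2-fold change was −2.07 ± 0.64 (adjusted p = 0.112) without and −1.82 ± 0.25 (adjusted p = 0.0013) with the isolate as a block, in edgeR. It was −2.44 in I90-10 and −1.18 in I90-79. ACTG2, the γ-actin of visceral smooth muscle (ENSG00000163017; hg19 chromosome 2, 74119441 to 74146992, plus strand), had 627 and 205 CPM in control and 144 and 65.1 CPM in knockdown libraries. For ACTG2 the log2-fold change was −1.99 ± 0.63 (adjusted p = 0.116), and −1.89 ± 0.13 with the block (adjusted p = 6.4e-05). In I90-10 it was −2.12 and in I90-79 −1.65, a smaller gap between the isolates than that of ACTA2. Exons of the opposite-strand genes FAS and ACTA2-AS1 cover 31.3% of the exonic bases of ACTA2, and the strand setting of the count is not given in the sources used here, so reads over these bases cannot be told apart. FAS, which encodes a death receptor, had a log2-fold change of −0.80 (adjusted p = 0.044, and 0.0026 with the block), and ACTA2-AS1, with 27 to 44 reads per library, had −0.26 (adjusted p = 0.694). ACTG2 overlaps no annotated gene.

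Of the proteins that lie along the actin filament, tropomyosin 1 stood out. TPM1 (ENSG00000140416; hg19 chromosome 15, 63334831 to 63364114, plus strand) had 538 and 237 CPM in control and 159 and 103 CPM in knockdown libraries, with no overlap of the groups. Its log2-fold change was −1.57 ± 0.43 (adjusted p = 0.088), and −1.48 ± 0.14 with the isolate as a block (adjusted p = 2.1e-04). TPM2, which encodes β-tropomyosin (ENSG00000198467; hg19 chromosome 9, 35681989 to 35691017, minus strand), had 1396 and 909.7 CPM in control and 1014 and 805 CPM in knockdown libraries. Here the groups overlapped, as the knockdown of I90-10 lay above the control of I90-79. The log2-fold change of TPM2 was −0.34 ± 0.25 (adjusted p = 0.426), and −0.32 ± 0.11 with the block (adjusted p = 0.054). Exons of the opposite-strand genes TPM1-AS and ENSG00000259627 cover 13.5% of the exonic bases of TPM1. TPM1-AS had 66 and 52 reads in control and 7 and 8 reads in knockdown libraries (log2-fold change −2.85, adjusted p = 0.028, and 0.0020 with the block), and ENSG00000259627 had 0 reads.

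CALD1, which encodes the actin-binding protein caldesmon (ENSG00000122786; hg19 chromosome 7, 134429003 to 134655479, plus strand), had 787 and 529 CPM in control and 432 and 433 CPM in knockdown libraries. The knockdown values were nearly equal and both below the controls. The log2-fold change was −0.60 ± 0.22 (adjusted p = 0.145), and −0.58 ± 0.14 with the block (adjusted p = 0.016) and so was not called. CNN1, the calponin of smooth muscle (ENSG00000130176; hg19 chromosome 19, 11649532 to 11661138, plus strand), had 79.2 and 29.5 CPM in control and 34.0 and 20.4 CPM in knockdown libraries. Its groups overlapped, since the knockdown of I90-10 lay above the control of I90-79. The log2-fold change of CNN1 was −0.996 ± 0.50 (adjusted p = 0.258), and −0.88 ± 0.16 with the block (adjusted p = 0.0044). TAGLN, which encodes transgelin, an actin-bundling protein also known as SM22α (ENSG00000149591; hg19 chromosome 11, 117070037 to 117075498, plus strand), had 486 and 149 CPM in control and 215 and 116 CPM in knockdown libraries. These groups overlapped as well. The log2-fold change of TAGLN was −0.94 ± 0.59 (adjusted p = 0.351), and −0.78 ± 0.17 with the block (adjusted p = 0.011). Exons of PCSK7, a protease gene on the opposite strand, cover 11.4% of the exonic bases of TAGLN, and PCSK7 had a log2-fold change of −0.93 (adjusted p = 0.039, and 5.9e-04 with the block).

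On the side of myosin, the kinase and its substrate differed in how far they parted the groups. MYLK, which encodes the myosin light chain kinase (ENSG00000065534; hg19 chromosome 3, 123328896 to 123603178, minus strand), had 1105 and 661 CPM in control and 306 and 246 CPM in knockdown libraries. Both knockdown values lay far below either control. The log2-fold change was −1.68 ± 0.28 (adjusted p = 0.033), and −1.64 ± 0.12 with the block (adjusted p = 9.7e-05). MYL9, which encodes the regulatory light chain that this kinase phosphorylates in smooth muscle (ENSG00000101335; hg19 chromosome 20, 35169887 to 35178228, plus strand), had 299 and 146 CPM in control and 175 and 85.9 CPM in knockdown libraries. The groups overlapped, yet the log2-fold change was nearly equal in the isolates, at −0.78 in I90-10 and −0.77 in I90-79. For MYL9 it was −0.77 ± 0.46 without the block (adjusted p = 0.322) and −0.77 ± 0.09 with it (adjusted p = 6.1e-04). Of the exonic bases of MYLK, 1.04% overlap the opposite-strand genes MYLK-AS1, with 8 to 30 reads per library, and MYLK-AS2, with 0 reads. The opposite-strand gene ENSG00000259716, which covers 57.7% of the exonic bases of MYL9, had 0 reads in each library.

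**Figure D2:**
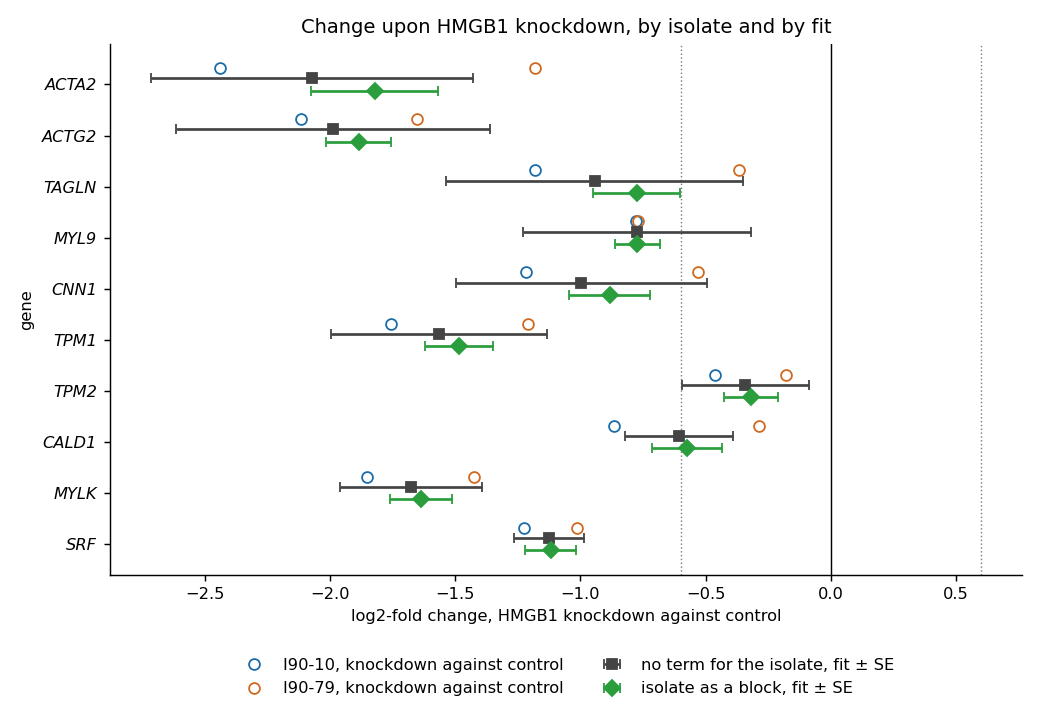
Log2-fold change (x axis, HMGB1 knockdown against control) of each contractile gene (y axis) within I90-10 and I90-79 (open circles) and in edgeR's fits without and with the isolate as a block (filled marks, bars ± SE), with dotted lines at the fold threshold of 0.6 in either direction. The bars are shorter with the block, as for ACTG2 (0.63 without and 0.13 with it), and TPM2 lies nearest to 0.

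The contractile genes also differed between the isolates. In the control libraries I90-10 had a higher CPM than I90-79 for all 10 genes, by 1.23- to 3.82-fold (median 2.16-fold), while the median ratio of all genes tested was 0.9997. The ratio was above 2 for 6 of the 10, as for 3.83% of all genes. In the knockdown libraries the ratios were 0.999 to 2.22 with a median of 1.57, and above 2 for 2 of the 10, ACTG2 and MYL9 (3.9% of all genes). For 9 of the 10 genes, CALD1 being the exception, I90-10 was above I90-79 in both groups, as for 33.2% of all genes. The ratio was closer to 1 in the knockdown for each of the 10 genes, as for 51.9% of all genes and for 80.3% of the 590 genes with a control ratio above 2. The log2-fold change was accordingly further below 0 in I90-10 (median −1.22) than in I90-79 (median −0.89), a difference that has 1 pair of libraries per isolate and was not tested. The summed level of the fibroblast markers was also higher in I90-10, with 34802 and 33731 CPM against 18862 and 21615 CPM in I90-79 (control and knockdown, respectively), and its part in the difference between isolates was not tested. COL1A1, COL1A2 and COL3A1 made up most of this sum. PDGFRA of the list was lower in the control of I90-10 (576 CPM) than in that of I90-79 (818 CPM).

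How much of each change rested on 1 library was therefore measured by leaving out each in turn. Without control replicate 1, the library with the highest values, the log2-fold changes were −0.81 for ACTA2, −0.97 for ACTG2, −0.86 for TPM1, −0.29 for CALD1, −0.17 for MYL9, −0.12 for CNN1 and −0.002 for TPM2, and that of TAGLN turned to 0.15. MYLK kept −1.26 and SRF −0.97. Without control replicate 2, the genes lay between −2.74 (ACTA2) and −0.62 (TPM2), and 5 of the 10 were called downregulated (2.1% of all genes in that fit). SRF moved least over the 4 reductions, from −1.27 to −0.97, and ACTA2 most, from −2.74 to −0.81.

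**Figure D3:**
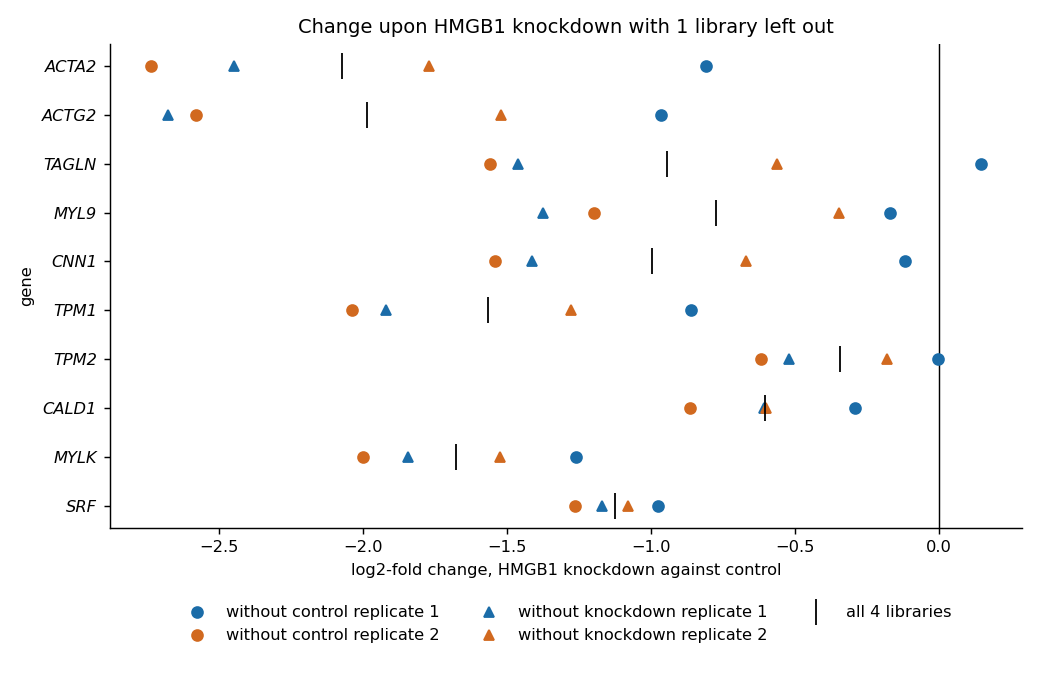
Log2-fold change (x axis, HMGB1 knockdown against control) of each contractile gene (y axis) in edgeR's fit with all 4 libraries (vertical bars) and with 1 library left out (circles, a control library; triangles, a knockdown library; blue, replicate 1; orange, replicate 2). The blue circles, without control replicate 1, lie furthest to the right for each gene, and TAGLN alone crosses 0.

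The order of levels among the genes was taken per kilobase of exon. In the control libraries the order of mean CPM per kb was TPM2 (285), MYL9 (186), ACTG2 (109), TAGLN (81.1), CALD1 (66.3), ACTA2 (49.0), TPM1 (45.8), MYLK (39.8), SRF (31.5) and CNN1 (18.5). Neighbours in this order had overlapping control values except SRF and CNN1, so the order of the others is not resolved with 2 libraries. TPM2 lay above MYL9 in 4 of 4 libraries even so, and MYL9 above ACTG2. The length used is that of all annotated exons of a gene together, and the order depends on it. By mean control CPM without division by length, TPM2 kept place 1. MYL9 then came at place 7, below ACTG2 at place 4, and MYLK at place 2. In the knockdown, ACTG2 moved from the third to the fifth place, at 27.5 CPM per kb, and ACTA2 from the sixth to the ninth, at 11.7 CPM per kb. SRF moved up from the ninth to the seventh place with 14.4 CPM per kb, a level below its own control.

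Most of these genes belong to families in which some other members are expressed in many cell types. The share of each paralog in its family shows whether the muscle form or the whole family was lower. The summed actins had 3104 and 2039 CPM per kb in control and 1339 and 936 CPM per kb in knockdown libraries, a mean 2.26-fold lower. Cytoplasmic actins made up nearly all of it. ACTB, the β-actin, had a log2-fold change of −0.87 (adjusted p = 0.093, and 4.5e-04 with the block) and ACTG1, the cytoplasmic γ-actin, had −1.50 (adjusted p = 0.052, and 5.6e-05 with the block), so that both were downregulated with the isolate as a block. ACTB is widely used as a reference gene. ACTA2 took 2.50 and 0.999% of the actin level in control and 1.07 and 0.96% in knockdown libraries, and ACTG2 5.30 and 2.63% in control and 2.83 and 1.82% in knockdown libraries. Within each isolate both shares were lower in the knockdown, and across isolates the groups overlapped, while the share of ACTB (46.9 and 52.6% in control, 59.3 and 63.1% in knockdown) and that of ACTG1 (45.3 and 43.8%, then 36.8 and 34.1%) did not. The cardiac and skeletal actins ACTC1 and ACTA1 stayed below 0.01% of the actin level.

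In the tropomyosins, TPM1 took 7.71 and 4.78% of the family's level in control and 3.33 and 2.64% in knockdown libraries, without overlap. The other three had log2-fold changes nearer to 0, with −0.34 for TPM2, −0.07 for TPM3 and −0.56 for TPM4, and none was called with the block. CNN2, a calponin found in many cell types, had 513 and 305 CPM in control and 120 and 79.7 CPM in knockdown libraries (log2-fold change −2.03 ± 0.32, adjusted p = 0.029, and 2.7e-05 with the block). Its difference was larger than that of CNN1, so CNN1 took 8.73 and 5.86% of the calponin level in control and 9.15 and 7.95% in knockdown libraries. CNN3 had a log2-fold change of −0.70 (adjusted p = 0.227) and was called downregulated with the block (adjusted p = 0.0037). For the transgelins and light chains the summed level was nearly equal in the groups, at 258 against 268 and 443 against 396 CPM per kb in the mean of control and knockdown. Within each isolate TAGLN and MYL9 took a smaller share of their family in the knockdown (TAGLN 42.2 against 18.1% in I90-10 and 17.2 against 12.7% in I90-79, MYL9 46.8 against 32.5% and 34.5 against 20.9%). Across isolates the groups overlapped for TAGLN, where control replicate 1 stood apart, and did not for MYL9. TAGLN2 had a log2-fold change of 0.35 (adjusted p = 0.220) and MYL12B, a light chain of non-muscle myosin, 0.33 (adjusted p = 0.260), against −0.94 for TAGLN and −0.77 for MYL9. TAGLN3, a transgelin known from neurons, had 0.20 and 0.16 CPM in control and 2.98 and 1.95 CPM in knockdown libraries (log2-fold change 3.73, adjusted p = 0.016, and 4.5e-04 with the block). MYLK made up 99.08 to 99.5% of the light chain kinases in the 4 libraries. The shares are given as a description and were not tested.

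**Figure D4:**
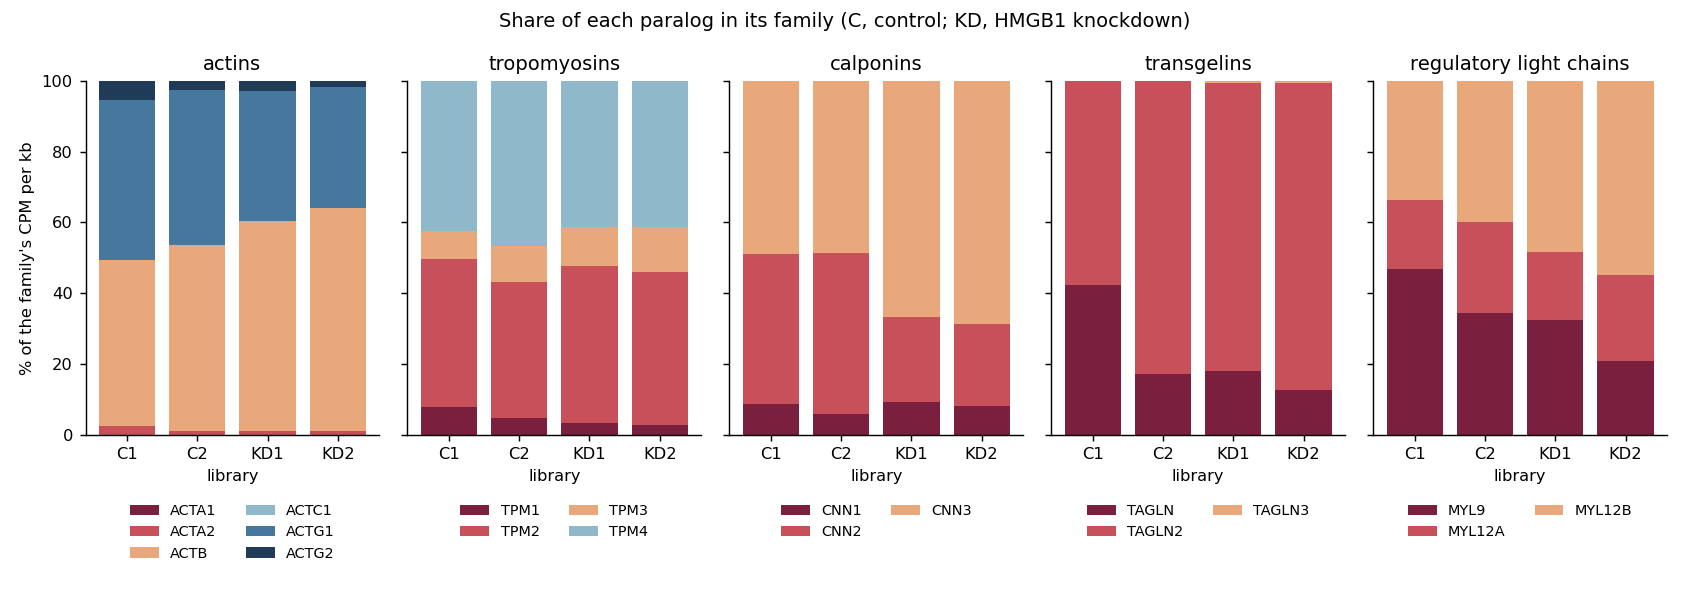
Share of each paralog (y axis, % of the family's CPM per kb of exon, from 0 to 100) in 5 gene families in the 4 libraries (x axis; C1 and C2, control replicates; KD1 and KD2, HMGB1 knockdown replicates). ACTB and CNN3 take larger shares in both knockdown libraries, TPM1 and CNN2 smaller ones, and the share of TAGLN is largest in control replicate 1.

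A list of 40 further genes of the contractile machinery (such as non-muscle myosins, crosslinkers and focal adhesion proteins) lay on both sides of 0. Of 38 genes tested, 26 had a log2-fold change below 0 and 12 above it, with a median of −0.21. Without the block 0 were called in either direction (0.136% of all genes down and 0.0649% up). There, 10 had an unadjusted p below 0.05 and were lower (14.7% of all genes), and 3 were higher (13.6%). With the isolate as a block, 8 were downregulated (7.84% of all genes), PPP1R14A, ROCK2, ZYX, PALLD, PDLIM7, LMOD1, SYNPO2 and LIMA1. RHOB and LPP, 2 genes, were upregulated (6.68% of all genes). The smallest p were those of LPP, a focal adhesion protein, with a log2-fold change of 1.06 (adjusted p = 0.014, and 2.3e-04 with the block), and RHOB, a small GTPase of endosomes, with 1.30 (adjusted p = 0.021, and 2.3e-04 with the block). ZYX, which encodes zyxin of focal adhesions and stress fibres, had −1.26 (adjusted p = 0.032, and 1.3e-04 with the block), and PDLIM7, a LIM protein bound to actin bundles, had −1.25 (adjusted p = 0.035, and 1.3e-04 with the block). LMOD1, the smooth muscle leiomodin that nucleates actin filaments, is named because of its values. With the CPM values given above, its log2-fold change was −4.35 ± 0.99 (adjusted p = 0.059, and 1.6e-05 with the block). MYH9, the main non-muscle myosin heavy chain, had a log2-fold change of −0.18 and was lower in I90-10 but not in I90-79. It too was picked after its values were seen.

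Cofactors and known targets of SRF lay on both sides of 0. Of 28 listed genes 27 were tested, 15 with a log2-fold change below 0 and 12 above it (median −0.20). Without the block 0 were called (0.136% of all genes down and 0.0649% up). There, 8 had an unadjusted p below 0.05 and were lower (14.7% of all genes), and 6 were higher (13.6%). With the block, 7 were downregulated (7.84% of all genes), the cofactors MKL2, ELK4 and FHL2 and the targets CYR61, TGFB1I1, ACTB and ACTG1. The 4 upregulated (6.68% of all genes) were EGR2, FOSB, JUNB and IER2. Other listed genes of the early response were called in neither fit, with log2-fold changes of 0.03 for EGR1, 0.71 for EGR3, 1.08 for FOS and 1.39 for NR4A1 (named after their values were seen). EGR2, a zinc finger transcription factor, had 3.27 and 3.37 CPM in control and 13.7 and 13.4 CPM in knockdown libraries (log2-fold change 2.03, adjusted p = 0.010, and 1.3e-04 with the block). JUNB, a subunit of AP-1, had a log2-fold change of 1.52 (adjusted p = 0.011, and 1.0e-04 with the block). CYR61, a matricellular protein controlled by both SRF and YAP, had −2.15 (adjusted p = 0.020, and 1.8e-05 with the block), and ELK4, a ternary complex factor, had −0.96 (adjusted p = 0.036, and 5.9e-04 with the block). Promoters were also searched for part of the other named genes, and of these EGR2, LPP, ACTG1, CNN2 and TPM4 have a promoter with a CArG box. Those of EGR1, EGR3, FOS, FOSB, IER2, NR4A1, MKL1, MKL2, MYOCD, FHL2 and TGFB1I1 were not searched. No promoter was found for ACTB and CYR61. With the block, EGR2 and LPP were upregulated, ACTG1 and CNN2 were downregulated, and TPM4 was not called. The myocardin-related cofactors MKL1 and MYOCD, named here after their values were seen, had log2-fold changes of −0.30 and −0.51 and were not called in either fit.

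Markers of the myofibroblast outside the contractile apparatus, 26 matrix and surface genes, lay on both sides of 0 as well. All 26 were tested, 15 with a log2-fold change below 0 and 11 above it, with a median of −0.07. Without the block 0 were called (0.136% of all genes down and 0.0649% up). There, 3 had an unadjusted p below 0.05 and were lower (14.7% of all genes), and 4 were higher (13.6%). With the block 7 were downregulated (7.84% of all genes), COL5A1, FN1, CTHRC1, CDH11, PDGFRB, THY1 and IGFBP3. The 2 upregulated (6.68% of all genes) were COL11A1 and TGFB1. IGFBP3, which binds insulin-like growth factors, had a log2-fold change of −0.83 (adjusted p = 0.037, and 0.0014 with the block), and CTHRC1, a secreted collagen triple helix protein, had −1.17 (adjusted p = 0.075, and 1.3e-04 with the block). TGFB1, the growth factor that induces myofibroblasts, was higher, with 0.64 (adjusted p = 0.063, and 0.0066 with the block). CDH2, the gene of N-cadherin, had 0.54 (adjusted p = 0.047), below the fold threshold. The difference between these lists and the 10 contractile genes was not tested, since the genes were chosen with results of these data known.

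**Figure D5:**
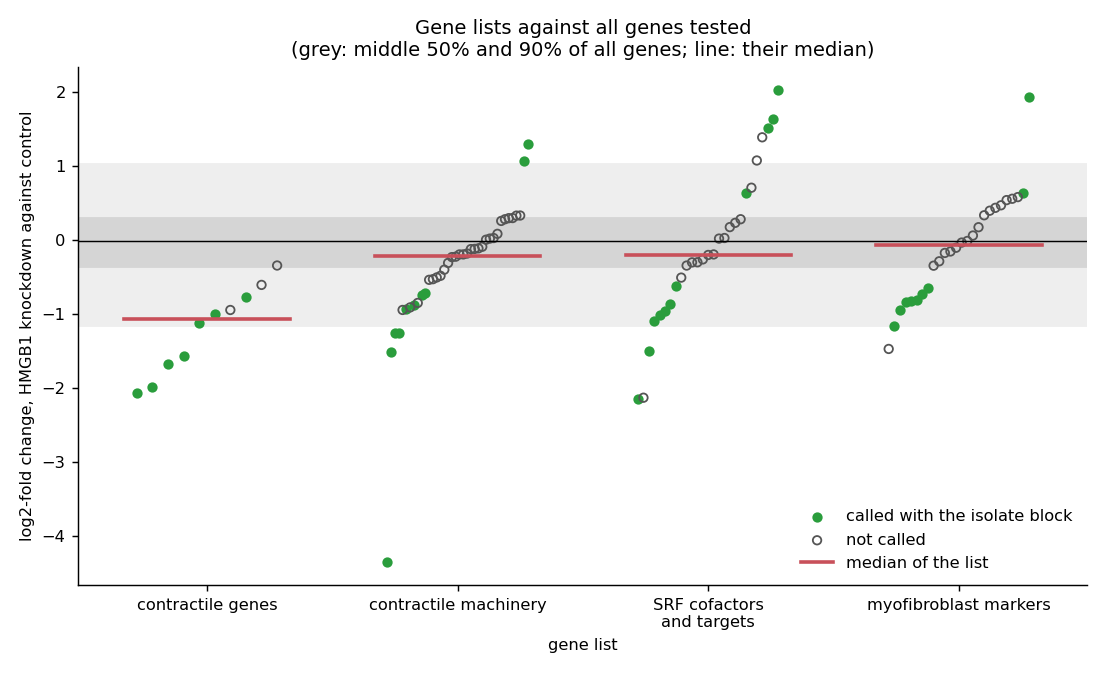
Log2-fold change (y axis, HMGB1 knockdown against control, fit without the isolate) of each tested gene in the 10 contractile genes and 3 further lists (x axis), with the median of each list as a red line and the genes called with the isolate as a block in green. The contractile genes all lie below 0 (median −1.06), the other lists lie on both sides of it, and the grey bands hold the middle 50% and 90% of all genes tested.

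Between 0 and 0.915% of the 50-base pieces of the transcripts of the 10 genes also occur in other genes of the count files. The word GCAGTT in the 3′ UTR went with lower values of its genes in these libraries. This pattern was known from earlier results of these data, so the medians that follow describe it and do not test it. The median log2-fold change of all tested genes was 0.07 with no copy (7332 genes), −0.05 with 1 copy (3107 genes) and −0.20 with 2 or more (2245 genes). TPM1 and SRF hold 2 copies each and MYLK 5, and the other 7 genes, with ACTA2 and ACTG2 among them, hold 0. Copies were counted in the longest 3′ UTR of each gene, without a match for its length, and no other word was counted. This UTR has 2319 to 5759 bases in TPM1, SRF and MYLK and 152 to 3108 bases in the other 7 genes. The part of this word, or of UTR length, in the changes of TPM1, SRF and MYLK and of all genes was not tested.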

How the data were processed

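RNA-seq was performed on 2 control and 2 HMGB1 knockdown libraries. Per the labels and the methods of the study, poly(A) RNA was made into TruSeq libraries, and the authors mapped reads to hg19 with STAR and deposited raw read counts per gene from featureCounts, without normalization. Tool versions and the strand setting are not given in the sources used here. Counts were tested across 15398 genes with edgeR 4.0.16 (R 4.3.3, limma 3.58.1), using filterByExpr, TMM scaling, quasi-likelihood F tests and p-values adjusted by Benjamini-Hochberg over all genes tested, and the scripts were tested on simulated data. Each group has 2 libraries, so without the block p-values rest on the spread between isolates together with that between cultures. With the block they rest on how far the change upon knockdown differed between the isolates, which includes the spread between cultures. No isolate has 2 libraries in the same group. The labels put each isolate in both groups, so the replicate numbers pair the libraries, and across genes the difference between replicates had a correlation of 0.46 between the groups (a description over genes that share libraries). The members, gene lists and alternatives were chosen with earlier results of these data known. Alternatives were DESeq2 1.42.0, RUVs with 1 factor before DESeq2 as the authors' methods name both, other size factors and filters, the replicate block, other thresholds and leaving out each library. Named genes are the members, HMGB1, the paralogs, overlapping genes, and the 4 genes with the smallest p of each list. Where others are named, they were called with the block, are cell type markers, or were picked after their values were seen.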

Additional observations from a re-analysis of the deposited data

How the results depend on the processing

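All 10 contractile genes kept a log2-fold change below 0 in each alternative except TAGLN, which ranged from −1.56 to 0.15 with 1 library left out (0.15, adjusted p = 0.854, without control replicate 1). Over 120 pairs of gene and alternative, 89 kept direction and side of the thresholds, 30 were newly called and 1 turned. The count of contractile genes called downregulated, 0 as reported (0.136% of all genes), was 7 with the replicate block (7.84% of all genes). It was 5 with RUVs and DESeq2 (6.1%), 3 with DESeq2 (5.31%) and 2 at an adjusted p below 0.05 (4.34%). Without the low-count filter it was 8, in a fit that called 1275 genes downregulated. That fit took in every gene with any read, so its counts and those of the other fits are not a like comparison. In its edgeR test the adjusted p of ACTA2 was 1.8e-32, against 0.112 with the filter. The median of the contractile genes, −1.06, was −0.80 with RUVs. It ranged from −1.55 (control replicate 2 left out) to −0.55 (control replicate 1 left out). With 1 library left out, the lone sample is assumed to vary like the other group. The cause of these shifts was not tested.

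Of the contractile machinery, 2 were up- and 8 downregulated with the replicate block, 2 and 6 with RUVs, 2 and 5 with DESeq2, 2 and 9 without the filter, 2 and 3 at an adjusted p below 0.05, and 0 to 1 and 0 to 6 with 1 library left out. Of the SRF cofactors and targets these numbers were 4 and 7, 3 and 6, 3 and 6, 6 and 7, 2 and 2, and 0 to 3 and 0 to 2. Of the myofibroblast markers they were 2 and 7, 4 and 3, 1 and 2, 2 and 8, 0 and 1, and 0 and 0 to 1. Of all genes, for which 10 were up- and 21 downregulated as reported, they were 1028 and 1207, 877 and 939, 728 and 818, 1118 and 1275, 575 and 668, and 0 to 305 and 0 to 337, and 6 were upregulated with at least 10 counts required in every library. Raw counts in place of counts per kilobase moved 9 of 16 family shares and 7 of 10 places in the order of levels by more than the spread between replicates or by at least 1 place. The contractile genes had at least 638 reads in each library.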
